A study of Mus musculus with 7 samples.

Results

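The genes described here carry out and control the synthesis of cholesterol and fatty acids. They are a fixed list of 33 mouse genes, made up of enzymes of sterol synthesis, the SREBP regulators and enzymes of fatty acid synthesis. The list gives names and uses no measured value, but it was chosen with earlier results of these data known. Of the 33, 32 had a row among the 30879 genes measured, and Fdps was not analysed here. The list holds 18 measured sterol genes, 4 regulators and 10 fatty acid genes.

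Single cells were sequenced from wild type C57BL/6 mice that received no treatment: 2 samples of thyroid tissue, 2 samples of thyroid follicular cell organoids (TFCOs) at early passage and 3 samples of TFCOs at late passage. TFCOs are 3D cultures grown from thyroid follicular cells (TFCs), the epithelial cells that make thyroid hormone, in a medium with forskolin, R-spondin, A83-01, EGF and FGF10, so every TFCO sample carried these factors and the tissue samples did not. Age was not given, the labels do not say which organoid line or gland each sample came from, and the design text names 2 biological replicates for each kind of sample, so that 2 of the 3 late passage samples may come from 1 replicate. P-values therefore measure the spread between samples, part of which may be technical.

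Cholesterol is built from acetyl-CoA through the mevalonate pathway to squalene, and squalene is closed to lanosterol and trimmed to cholesterol in the endoplasmic reticulum. Fatty acids are built from the same acetyl-CoA by acetyl-CoA carboxylase and fatty acid synthase, then lengthened and desaturated. Both branches are controlled by SREBP transcription factors, which SCAP carries from the endoplasmic reticulum to the Golgi when sterols are low and which INSIG proteins hold back when sterols are plentiful. Dividing cells need both products for new membrane.

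Levels are given as mean unique molecular identifiers (UMIs, 1 per captured transcript) per 10000 UMIs of the cell, averaged over the cells of a sample. Of 2590 cells, 2035 held 1000 UMIs or more and were used, and all 1457 kept TFCO cells were compared with the TFC-like tissue cells, 49 in tissue 1 and 50 in tissue 2. Those TFC-like cells carried Tg, the thyroglobulin gene, at 1555 and 1105 UMIs per 10000, and the 5 TFCO samples carried it at 68.5 to 154. The tissue arm was shallow, with a median of 2374 and 1980.5 UMIs per cell against 5011 to 12380.5 in TFCO samples. A count of 0 in the 131378 UMIs of tissue 1 allows up to 0.228 per 10000 of the pooled UMIs. A mean over cells can lie higher, since a UMI in a shallow cell weighs more there. In tissue 1, 1 UMI of Stard4 gave a level of 0.146 and 3 UMIs of Msmo1 gave 0.261. In tissue 2, 2 cells held 268847 and 151110 UMIs, and the values below rest on means over cells, in which these 2 cells count no more than others. Without them 8 members had no UMI in tissue 2 either (Lss, Cyp51, Tm7sf2, Nsdhl, Hsd17b7, Stard4, Acss2 and Scd1), so the tissue 2 values of these 8 rest on those 2 cells alone. The leading genes of the tissue TFC-like cluster also held Chga and Calca, markers of the calcitonin-making C cells, and Pth, the parathyroid hormone gene. After cells scoring higher for such markers were set aside, 5 C cell markers still summed to 3.31 and 2.30 in the tissue samples and to 0.046 to 0.248 in TFCOs, with Gcm2, a defining parathyroid factor, at 0 in both tissue samples and Pth at 0.872 and 0.947. Of these markers the C cell gene Scg3 was at 0 in tissue 1, and 3 parathyroid markers summed to 1.41 and 1.20 in tissue and 0.559 to 1.55 in TFCOs. The part of such cells or their RNA in the tissue values was not tested. Intervals and limits of this kind cover counting error only. Plate wells carry 1 of 384 barcodes, all of which were shared by at least 2 samples and 305 of which were found in all 7. In TFCO cells the level of a member followed the well barcode at a correlation of 0.0883 at most (Acaca). It was over 0.05, the limit used to leave genes out of the clustering, for 9 of the 32 members. Among these were Msmo1 (0.0705), Acacb (0.0683), Cyp51 (0.0590) and Idi1 (0.0510). Of 19498 genes tested for this, 4194 were over the limit.

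The stretch before the start of 2 genes is shown because these were the sterol and the fatty acid gene with a promoter entry that were higher in TFCOs by the most. Sequences are from RefSeq on GRCm38.p6, 250 bases before the start and read on the strand of the gene, with capitals on the sterol regulatory element core TCACNCCAC and on the CCAAT box (read as ATTGG on the other strand). In Fasn the last pair of CCAAT matches overlap.
Hmgcs1, chr13:119690101-119690350, plus strand: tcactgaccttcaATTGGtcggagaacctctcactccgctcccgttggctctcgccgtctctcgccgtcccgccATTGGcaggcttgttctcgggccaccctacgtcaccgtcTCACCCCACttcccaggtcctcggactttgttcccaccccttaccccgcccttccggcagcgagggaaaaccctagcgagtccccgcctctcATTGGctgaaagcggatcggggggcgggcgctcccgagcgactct
Fasn, chr11:120824548-120824797, minus strand: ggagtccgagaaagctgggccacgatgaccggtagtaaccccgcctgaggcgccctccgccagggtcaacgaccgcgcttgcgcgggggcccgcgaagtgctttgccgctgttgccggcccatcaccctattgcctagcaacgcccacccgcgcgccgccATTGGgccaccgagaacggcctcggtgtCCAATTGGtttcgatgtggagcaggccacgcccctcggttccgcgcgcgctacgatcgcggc
The core in Hmgcs1 reads TCACCCCAC and begins 137 bases before the start. Promoter entries matched 27 of the 33 genes, with 34 windows in all. The core was in 1 of these windows, that of Hmgcs1, and in 1.05% of the 32851 promoter windows of the genome, and the E-box TCACNTGA, searched on both strands like the others, was in 0 of them and in 3.45% of all windows. A CCAAT box was in 23 of the 34 windows, among them 14 of the 18 windows of sterol genes, and in 33.8% of all windows. The GC box GGGCGG was also in 23 of the 34 windows and in 32.7% of all. These are matches of letters in a short window and were not tested as binding sites.

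**Figure D1:**
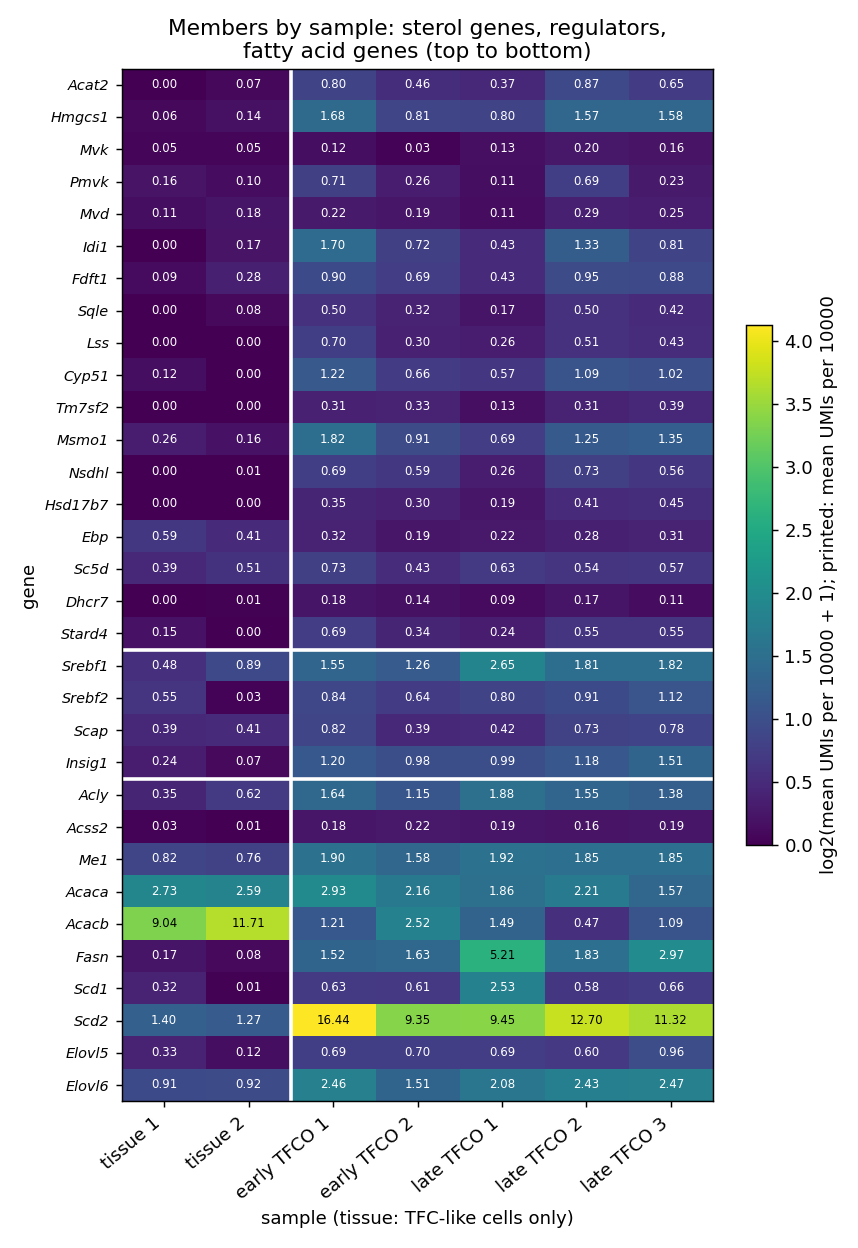
Level of each of the 32 measured members in the TFC-like cells of 2 tissue samples and in all kept cells of 5 TFCO samples. Rows are genes (sterol synthesis, regulators, fatty acid synthesis from top to bottom), columns are samples, colour is log2(mean UMIs per 10000 + 1) and the printed number is the mean UMIs per 10000. Most members were higher in TFCOs, Scd2 most of all at 9.35 to 16.4, while Acacb was highest in tissue at 9.04 and 11.7.

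The first comparison asked how TFCO cells differ from the follicular cells of the gland. Genes of both branches were higher in TFCOs, from Hmgcs1 at the head of sterol synthesis to the desaturase gene Scd2, and 1 member, Acacb, was lower. Of the 19 members that passed a minimum mean of 0.5 over the 3 groups, 14 were higher in TFCOs and 1 was lower at an adjusted p under 0.05 (limma over 4303 genes). Of all genes tested, 22.7% were higher and 6.76% lower, 29.4% together. The minimum mean is an average in which TFCO groups count, so a gene scarce in tissue could pass only by being abundant in TFCOs, and these counts describe the genes that passed. With a minimum mean of 0.1, 4 of 30 members were higher and 1 lower, against 3.94% and 2.76% of all genes (6.7% together). With a pseudocount of 0.1 as well they were 13 and 1, against 8.42% and 1.99% (10.4% together). With no filter 3 of 32 members were higher and 1 lower, against 466 and 331 of 30751 genes. With each sample centred on its median gene 5 of 19 were higher and 1 lower, and of all 4303 genes 406 were then higher and 427 lower. The median log2 difference was 0.70 over the 19 members and 0.22 over all 4303 genes, so the members' differences stand against an overall shift of that size.

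Among sterol genes, Hmgcs1, which encodes the enzyme that makes HMG-CoA, had levels of 0.0621 and 0.143 in the tissue samples, 1.68 and 0.813 in early TFCOs, and 0.797, 1.57 and 1.58 in late TFCOs. Every TFCO sample was above both tissue samples. The tissue levels rested on 1 and 8 UMIs, and the log2 difference was 1.03 ± 0.26 (SE, adjusted p = 0.0130). All log2 differences here are on the log2(level + 1) scale, which understates the change of scarce genes.

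Idi1, the isomerase that activates isoprene units, was listed at 0 in tissue 1 and at 0.165 in tissue 2. Early TFCOs had 1.7 and 0.718 and late TFCOs had 0.426, 1.33 and 0.807, with no overlap between tissue and TFCO. The difference was 0.87 ± 0.28 (adjusted p = 0.0364). Idi1 shares 17.7% of its 50-base transcript stretches with the pseudogene Gm13502, so its reads may be split between them.

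Cyp51, the lanosterol demethylase, had 0.116 and 0.000744 in tissue, 1.22 and 0.662 in early TFCOs and 0.573, 1.09 and 1.02 in late TFCOs, a difference of 0.85 ± 0.21 (adjusted p = 0.0115). Msmo1, the methylsterol monooxygenase of the next steps, had 0.261 and 0.156 in tissue against 1.82 and 0.915 in early and 0.688, 1.25 and 1.35 in late TFCOs, a difference of 0.86 ± 0.24 (adjusted p = 0.0215). Neither gene overlapped between tissue and TFCO. Fdft1, squalene synthase, had 0.0892 and 0.282 in tissue against 0.899 and 0.687 in early and 0.425, 0.946 and 0.881 in late TFCOs, a difference of 0.58 ± 0.19 (adjusted p = 0.0385). It too was separate in every sample, with its lowest TFCO value in late TFCO 1. In tissue 1 and 2 these levels rested on 3 and 1 UMIs for Cyp51, 3 and 6 for Msmo1 and 1 and 22 for Fdft1. Those of Idi1 rested on 0 and 3.

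Sc5d, the lathosterol oxidase, was the only sterol gene tested that did not pass, with 0.391 and 0.513 in tissue and 0.432 to 0.726 in TFCOs (log2 0.12 ± 0.15, adjusted p = 0.569, and -0.07 when samples were centred on the median gene). The other 12 sterol genes were below the minimum mean. Of these, Acat2, Sqle, Lss, Tm7sf2, Nsdhl, Hsd17b7 and Dhcr7 had no UMI in tissue 1. At a minimum mean of 0.1, 6 of these 7 could be tested and none passed (limma, adjusted p from 0.0566 for Nsdhl to 0.130 for Sqle, all 6 at an unadjusted p under 0.05), and with a pseudocount of 0.1 as well Acat2, Lss, Nsdhl, Hsd17b7 and Tm7sf2 passed (adjusted p from 0.0116 for Nsdhl to 0.0434 for Tm7sf2). Of the 7, Acat2 (0.373 to 0.872 in TFCOs), Lss (0.259 to 0.701) and Nsdhl (0.261 to 0.725) lay in every TFCO sample above 0.228, the limit for the pooled UMIs of tissue 1. That limit is not on the scale of means over cells, on which 3 UMIs of Msmo1 gave 0.261 in tissue 1. It therefore cannot show that these genes were clear of tissue 1. Dhcr7, which encodes a late reductase of the pathway, lay below 0.228 in all 5 at 0.0915 to 0.181. Acat2 shares 39.1% of its stretches with Acat3 and its level is uncertain. Stard4, a sterol transport gene, ran from 0.243 to 0.687 in TFCOs against 0.146 and 0.00207, while the mevalonate genes Mvk, Pmvk and Mvd overlapped between tissue and TFCO.

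Ebp, the sterol isomerase, went the other way, with 0.588 and 0.411 in tissue and 0.187 to 0.320 in the 5 TFCO samples. The groups did not overlap. It was below the minimum mean of 0.5, and at a minimum mean of 0.1 it did not pass (log2 -0.25, adjusted p = 0.233, limma). In all, 13 of 18 sterol genes were higher in every TFCO sample than in both tissue samples, and among the 4303 genes tested 40.7% were separated in this way, a share that is not over like genes, since 12 of the 18 were below the minimum mean. Ebp and Acacb were the 2 of 32 members that lay below tissue in every TFCO sample, as did 10.9% of all genes tested.

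Of the 4 regulators, 3 were higher in TFCOs and 1 did not pass. Insig1, which encodes the sterol-sensing retention protein and is itself a target of SREBPs, had 0.244 and 0.0697 in tissue, 1.20 and 0.978 in early and 0.990, 1.18 and 1.51 in late TFCOs (log2 0.90 ± 0.18, adjusted p = 0.00455). Srebf1, the factor of the fatty acid branch, had 0.482 and 0.886 in tissue, 1.55 and 1.26 in early and 2.65, 1.81 and 1.82 in late TFCOs (0.70 ± 0.22, adjusted p = 0.0307). Both were higher in every TFCO sample than in tissue. The tissue levels of Insig1 rested on 3 and 6 UMIs and those of Srebf1 on 8 and 42.

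Srebf2, the factor of the sterol branch, had 0.549 and 0.0304 in tissue, 0.839 and 0.638 in early and 0.798, 0.908 and 1.12 in late TFCOs (0.54 ± 0.18, adjusted p = 0.0414). Tissue 1 lay close to the lowest TFCO sample. Without tissue 2, in a fit with equal weights and 1 tissue sample left, the difference was 0.24 and did not pass. Scap, the escort protein gene, had 0.387 and 0.412 in tissue, 0.819 and 0.387 in early and 0.424, 0.734 and 0.780 in late TFCOs, and it overlapped (0.20 ± 0.19, adjusted p = 0.427).

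In the fatty acid branch, Scd2, a stearoyl-CoA desaturase, had the highest level of UMIs among members in TFCOs. Its levels were 1.40 and 1.27 in tissue, 16.4 and 9.35 in early and 9.45, 12.7 and 11.3 in late TFCOs, a difference of 2.45 ± 0.35 (adjusted p = 0.00107) and a ratio of means of 8.87. The lowest TFCO sample was far above both tissue samples. In cells of 1000 to under 2000 UMIs the Scd2 level was 0.649 in 45 tissue cells and 9.25 in 107 TFCO cells, so the difference was also present between cells of like depth. It passed under all 24 other settings tried.

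Fasn, fatty acid synthase, had 0.170 and 0.0778 in tissue, 1.52 and 1.63 in early and 5.21, 1.83 and 2.97 in late TFCOs (1.53 ± 0.34, adjusted p = 0.00800). All TFCO samples were above tissue and late TFCO 1 was the highest. The tissue levels of Fasn rested on 3 and 22 UMIs. Scd1, the other desaturase, had 0.325 and 0.0122 in tissue and 0.579 to 0.664 in 4 TFCO samples, with 2.53 in late TFCO 1 (0.67 ± 0.36, adjusted p = 0.177).

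Acly, which makes cytosolic acetyl-CoA from citrate, was at 0.349 and 0.617 in tissue and 1.15 to 1.88 in TFCOs (0.75 ± 0.20, adjusted p = 0.0160). The malic enzyme gene Me1, a source of NADPH, was at 0.825 and 0.765 against 1.58 to 1.92 (0.64 ± 0.18, adjusted p = 0.0208). Me1 shares 22.9% of its stretches with Gm7049. The elongase gene Elovl6 was at 0.906 and 0.923 against 1.51 to 2.47 (0.71 ± 0.22, adjusted p = 0.0334), and Elovl5 at 0.329 and 0.115 against 0.601 to 0.958 (0.50 ± 0.16, adjusted p = 0.0321). All 4 were separate between tissue and TFCO. Acss2, the acetate-activating enzyme gene, was below the minimum mean, at 0.0321 and 0.00769 against 0.158 to 0.216, and did not pass at a minimum mean of 0.1 (log2 0.22, adjusted p = 0.103).

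The calls of Idi1, Fdft1, Srebf1, Srebf2, Elovl5 and Elovl6 were lost without early TFCO 1, with log2 differences from 0.50 for Srebf2 to 0.71 for Idi1. That fit leaves 1 early sample, which is assumed to vary like the others. Fdft1 and Srebf1 were also lost without tissue 1 (log2 0.46 and 0.53), in a fit with equal weights and 1 tissue sample left. With each sample centred on its median gene, Acly, Me1, Msmo1, Idi1, Fdft1, Elovl5, Elovl6, Srebf1 and Srebf2 no longer passed. With cells thinned to 1000 UMIs, Acly, Me1, Idi1, Elovl5, Elovl6, Srebf1 and Srebf2 did not pass. With noncycling TFCO cells only, Elovl5 and Srebf2 did not. Medium, cell depth and growth in culture differ together between gland and TFCO, and their parts in these differences cannot be told apart.

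**Figure D2:**
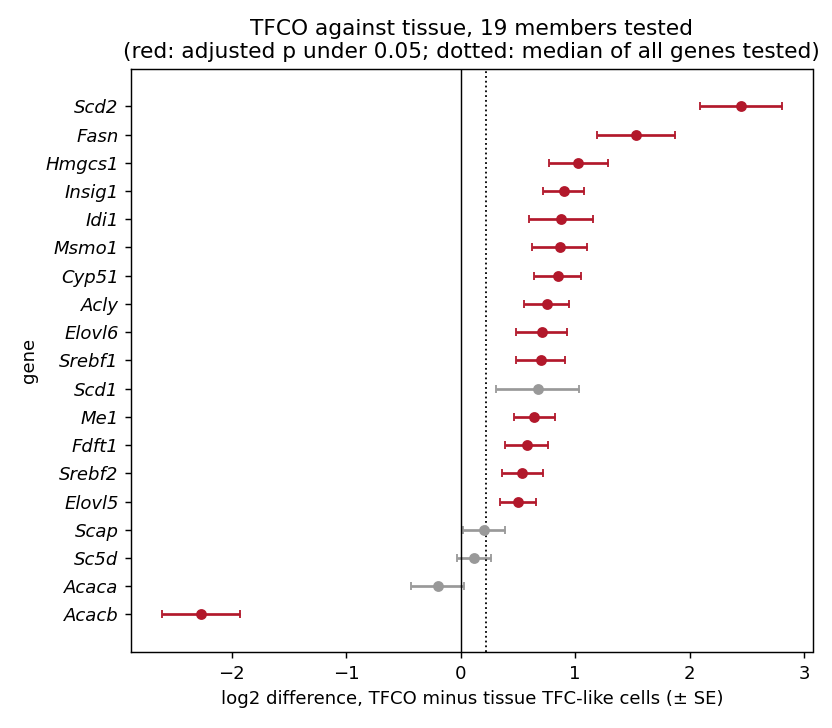
Difference between 5 TFCO samples and 2 tissue samples for the 19 members tested, as log2(mean UMIs per 10000 + 1) with its standard error on the x axis and genes on the y axis. Red marks an adjusted p under 0.05 and the dotted line the median of all genes tested, 0.22. Scd2 lies highest at 2.45 and Acacb lowest at -2.27.

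The 2 acetyl-CoA carboxylase genes, which encode the enzymes that make malonyl-CoA, parted. Acaca, the cytosolic form used for synthesis, had 2.73 and 2.59 in tissue and 1.57 to 2.93 in TFCOs, with overlap (-0.20 ± 0.23, adjusted p = 0.530), and it shares 30.4% of its stretches with Gm5182. Acacb, the mitochondrial form known for restraining fatty acid oxidation, had 9.04 and 11.7 in tissue, 1.21 and 2.52 in early and 1.49, 0.470 and 1.09 in late TFCOs (-2.27 ± 0.34, adjusted p = 0.00129). Both tissue samples were above every TFCO sample.

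The Acacb level moved with the depth of the cell. Tissue TFC-like cells of 1000 to under 2000 UMIs had a level of 14.6 and those of 5000 or more had 2.58, and TFCO cells ran from 4.43 to 0.681 over the same classes. The UMIs of Acacb per cell moved less, from 2.09 to 3.11 in tissue and between 0.654 and 0.777 in TFCOs. In all 3 classes tissue was still the higher, with 45 tissue and 107 TFCO cells in the shallowest. The class of 5000 or more held 9 tissue cells, among them those of 268847 and 151110 UMIs, and 1027 TFCO cells. Depth in that class need not be alike. Every other tissue cell class also carried Acacb, from 3.10 in stromal-like cells to 15.3 in the unnamed cells of tissue 2.

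**Figure D3:**
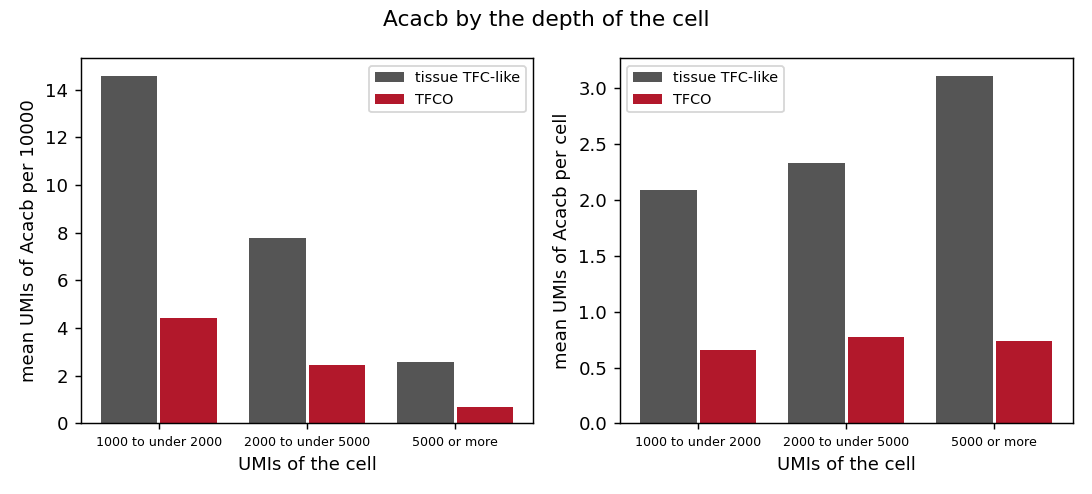
Acacb in tissue TFC-like cells (grey) and TFCO cells (red) in 3 classes of UMIs per cell on the x axis, as mean UMIs per 10000 (left) and as mean UMIs of the gene per cell (right). The scaled level falls with depth in both, from 14.6 to 2.58 in tissue, while the UMIs per cell stay between 2.09 and 3.11 in tissue and between 0.654 and 0.777 in TFCOs. The deepest class holds 9 tissue and 1027 TFCO cells.

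Within the gland, the sterol genes were low in every cell class. The sum over the 18 genes was 1.96 and 2.17 in TFC-like cells, 2.49 and 2.498 in endothelial-like cells, 2.47 and 3.75 in immune-like cells and 1.83 and 3.48 in mural-like cells of tissue 1 and 2, and 1.80 in the stromal-like cells of tissue 1. The classes overlapped, and all were below the lowest TFCO sample, at 5.81. Scd2 was at 1.40 and 1.27 in TFC-like cells, at 0.199 to 0.407 in endothelial-, immune- and mural-like cells and at 0.784 in the stromal-like cells of tissue 1. Elovl6 was at 0.906 and 0.923 in TFC-like cells against 0.0531 to 0.290 in those classes. Elovl5 was the reverse, at 0.924 and 1.21 in endothelial-like cells and 0.329 and 0.115 in TFC-like cells. The unnamed cells of tissue 1 and 2 had Scd2 at 0 and 0.178 and Elovl6 at 0.397 and 0.798. The 14 cells of tissue 1 set aside from the TFC-like cluster had Scd2 at 1.42, as high as the TFC-like cells, and Elovl6 at 0.370. Levels between cell classes were not tested.

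Adipocytes express many of these genes. In TFC-like tissue cells the defining adipocyte marker Adipoq was listed at 0 in tissue 1 and at 0.000744 in tissue 2, Lep was at 0 in both, and 7 adipocyte markers together summed to 0.640 and 1.93, of which Pparg made up 0.283 and 1.00. Fabp4 was at 0.122 and 0.402 in tissue against 0 to 0.00335 in TFCOs, and Cidec at 0.182 and 0.376 against 0.0420 to 0.133. Plin1 and Pparg overlapped between tissue and TFCO, and Lep was the higher in TFCOs, at 0.00605 to 0.0407. In TFCO samples the same 7 summed to 0.511 to 1.17. The part of adipocyte RNA in the levels above was not tested.

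Genes around the listed pathways were counted from separate lists. Of all genes tested between TFCO and tissue, 22.7% were higher and 6.76% lower, and these lists hold few tested genes. Of 6 measured partners of SREBP processing, 3 were tested, and Mbtps1, the site-1 protease that cuts SREBPs, was higher in TFCOs (0.451 and 0.0815 in tissue, 0.648 to 1.18 in TFCOs, log2 0.60, adjusted p = 0.0252), while Erlin1, an endoplasmic reticulum protein gene linked to SREBP retention, was lower (1.42 and 1.28 against 0.304 to 0.633, log2 -0.62, adjusted p = 0.0136). None of the 3 tested genes of the isoprenoid branch passed. In the list of sterol storage, efflux and oxysterol response, 1 of 4 passed, Osbp, a sterol transfer protein gene (log2 0.74, adjusted p = 0.0104).

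Of the acyl-CoA synthetases, which activate fatty acids, 3 were called higher in TFCOs, and Acsl1, at 0.139 and 0.632 in tissue and 0.390 to 0.490 in TFCOs, overlapped. Of 5 tested genes of desaturation, activation and storage, 3 were higher and 1 lower, and the 3 were Acsl3 (log2 1.10, adjusted p = 0.00250), Acsl4 (0.94, adjusted p = 0.00474) and Acsl5 (0.69, adjusted p = 0.0292). Acsl3 was at 0.129 and 0.344 in tissue and at 1.43 to 1.93 in TFCOs. Of 9 tested genes of fatty acid oxidation 2 were higher, Acadm (0.49, adjusted p = 0.0381) and Hadhb (0.49, adjusted p = 0.0325), and 1 was lower, Hadha (-0.45, adjusted p = 0.0384), which encodes the partner subunit of Hadhb in the trifunctional protein. Among all genes tested 22.7% were higher and 6.76% lower, and the oxidation counts were near these shares. Acsl5, Hadha, Hadhb and Mbtps1 were lost without early TFCO 1 (log2 0.63, -0.46, 0.47 and 0.55). Mbtps1 was also lost without tissue 2 (log2 0.39, in a fit with equal weights). Hadha was also lost without early TFCO 2 (log2 -0.45), and without late TFCO 1 or late TFCO 2 (limma, adjusted p = 0.0575 and 0.0549).

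The second comparison asked whether the genes changed with passage. No member differed between late and early TFCOs, and 0.0232% of all genes did, 1 of 4303 (limma, adjusted p under 0.05), with 893 genes and 2 members, Fasn and Srebf1, at an unadjusted p under 0.05. Fasn was at 5.21, 1.83 and 2.97 in late TFCOs against 1.52 and 1.63 in early ones, a difference of 0.68 ± 0.25 (adjusted p = 0.167). Srebf1 was at 2.65, 1.81 and 1.82 in late TFCOs against 1.55 and 1.26 in early ones (0.36 ± 0.16, adjusted p = 0.227). For both genes every late sample was above every early one, and 42.6% of the genes tested had late and early samples apart, in either direction. Without late TFCO 2 and early TFCO 1 together, 529 genes passed and Fasn was among them, but this leaves 1 early sample, which is assumed to vary like the others.

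Samples of the same passage also differed from each other, and the samples high in sterol genes were not those high in Fasn. The sum over the 18 sterol genes was 13.6 in early TFCO 1 and 12.2 in late TFCO 2, 10.7 in late TFCO 3, 7.67 in early TFCO 2 and 5.81 in late TFCO 1. The mean was 10.6 ± 4.21 (SD, n = 2) in early and 9.59 ± 3.36 (SD, n = 3) in late TFCOs. In 15 of the 18 sterol genes both late TFCO 2 and early TFCO 1 were above both late TFCO 1 and early TFCO 2, as in 17.8% of all genes tested, and late TFCO 1 was the lowest in 15 of 18. This pattern was noticed in the values and is given as a description.

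The samples high in sterol genes also held the most cycling cells. Cycling cells, with at least 2 UMIs of the proliferation genes Mki67 and Top2a together, were 25.0% of late TFCO 2 and 24.7% of early TFCO 1, against 11.98% of late TFCO 3, 6.19% of late TFCO 1 and 5.11% of early TFCO 2. A call from raw UMIs is reached more easily in deep cells, so these shares depend on depth. Late TFCO 2 and early TFCO 1 were also the deepest samples, with medians of 12380.5 and 11059 UMIs per cell against 5011 to 8954. In cells with no UMI of either gene the sterol sums were 11.7 in early TFCO 1, 11.05 in late TFCO 2, 10.1 in late TFCO 3, 6.85 in early TFCO 2 and 5.37 in late TFCO 1, the same order. The median depth of these noncycling cells was also higher in the first 3 of them, at 7650, 11198.5 and 8758 UMIs against 4430 and 5472. In noncycling cells of 4000 to 8000 UMIs, 34 to 104 per sample, the sums were 10.5, 11.3, 8.85, 7.68 and 6.19 in the same order of samples. The part of cycling share and depth in these differences was not tested.

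Fasn and Scd1 followed late TFCO 1 instead. Scd1 was at 2.53 there and at 0.579 to 0.664 in the other 4, and Fasn at 5.21 against 1.52 to 2.97. In late TFCO 1, 171 of 307 cells fell in a cluster that was left unnamed. Its 10 leading genes held 1 mural marker, Abcc9, and no TFC marker. It still scored best for TFC markers, of which 16 were detected, and Tg was at 133 in these 171 cells and 132 in the other 136. Scd1 itself was among its 10 leading genes although it was not used to form the clusters. Those 171 cells had Scd1 at 3.52 and Fasn at 5.86, and the other 136 cells of the sample had 1.28 and 4.40, both still above the other 4 samples' means. In noncycling cells of like depth late TFCO 1 had 3.41 for Scd1 and the others 0.387 to 0.633. Acly was also highest in late TFCO 1 (1.88), whereas Scd2 was near its lowest there (9.45).

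**Figure D4:**
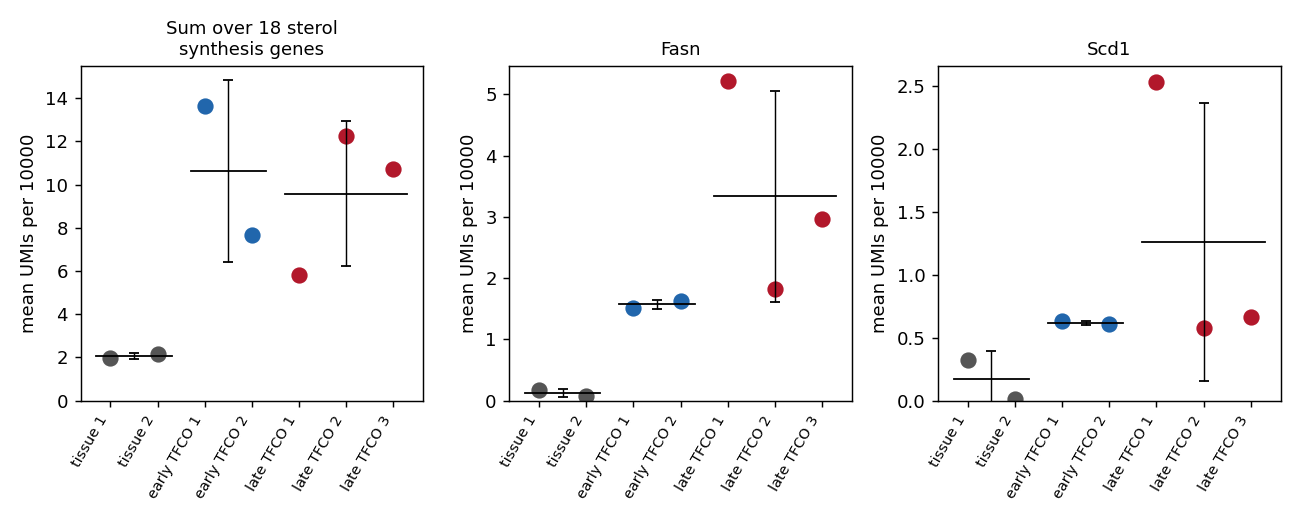
Sum of the levels of 18 sterol synthesis genes (left), Fasn (middle) and Scd1 (right) in each sample, as mean UMIs per 10000 on the y axis, in tissue (grey), early TFCOs (blue) and late TFCOs (red). Lines are group means and bars SD. The sterol sum is lowest among TFCOs in late TFCO 1, 5.81, where Fasn (5.21) and Scd1 (2.53) are highest.

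Between single cells of 1 sample the members moved together only weakly. In noncycling TFCO cells thinned to 3000 UMIs, 104 to 203 per sample, Spearman's rho of Scd2 with the summed sterol genes was 0.153 to 0.438 and that of Hmgcs1 with the other sterol genes 0.117 to 0.263. Fasn and Srebf1 had a rho of -0.0809 to 0.0959. Cells of a sample share a plate and a library, and at a few UMIs per gene such values say little.

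The third comparison set cycling against noncycling cells of the same TFCO sample, which share a culture. Of the 18 sterol genes 5 were higher in cycling cells and 13 did not pass, and no fatty acid gene was called higher. The difference between these lists was not tested. Of 32 members tested, 5 were higher and 1 lower at an adjusted p under 0.05, where 1.92% of all 12095 genes were higher and 0.281% lower (limma with the sample as a block). All 5 were sterol genes, Hmgcs1, Idi1, Cyp51, Msmo1 and Fdft1. Mki67 and Top2a, which define the cells, averaged 2.41 and 2.62 per 10000 in cycling cells, and Tg was lower there in 5 of 5 samples (68.3 ± 13.9 against 120.2 ± 39.2, SD).

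Hmgcs1 was at 1.64, 2.16 and 2.61 in the cycling cells of late TFCO 1, 2 and 3 against 0.697, 1.35 and 1.53 in their noncycling cells, and at 2.40 and 2.19 against 1.34 and 0.695 in early TFCO 1 and 2. It was higher in cycling cells in 5 of 5 samples (log2 0.61 ± 0.10, adjusted p = 0.00268). Idi1 was at 1.68, 1.78 and 1.41 against 0.337, 1.13 and 0.753 in late and at 2.16 and 1.92 against 1.5 and 0.641 in early TFCOs (0.60 ± 0.11, adjusted p = 0.00665). Idi1 was higher in cycling cells in 5 of 5 samples, and early TFCO 1 had the highest noncycling level.

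Cyp51 was at 1.54, 1.54 and 1.75 against 0.549, 0.939 and 0.989 in late and at 1.49 and 1.65 against 0.971 and 0.613 in early TFCOs (0.53 ± 0.09, adjusted p = 0.00592). Its level in cycling cells was nearly the same in all samples, 1.60 ± 0.105 (SD, n = 5), while the noncycling level varied more, 0.812 ± 0.213. Msmo1 averaged 1.93 ± 0.555 against 1.03 ± 0.305 (0.52 ± 0.10, adjusted p = 0.0146) and Fdft1 1.11 ± 0.262 against 0.661 ± 0.170 (0.34 ± 0.08, adjusted p = 0.0476). Both were higher in 5 of 5 samples.

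Of the sterol genes, 9 of 18 were higher in cycling cells in every sample, against 8.63% of all genes tested. Besides the 5 called these were Acat2 (1.14 against 0.560, adjusted p = 0.0512), Sqle, squalene epoxidase (0.651 against 0.331, adjusted p = 0.104), Lss, lanosterol synthase, and Mvk, mevalonate kinase. The summed sterol genes were at 13.1, 15.1 and 15.8 in the cycling cells of late TFCO 1, 2 and 3 and at 17.6 and 17.4 in those of early TFCO 1 and 2, and so spread less between samples than in noncycling cells, where they ran from 5.37 to 11.7.

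The regulators gave no call in this comparison. Srebf2 was higher in cycling cells in 5 of 5 samples (1.06 ± 0.169 against 0.781 ± 0.161, log2 0.21, adjusted p = 0.252) and Srebf1 lower in 5 of 5 (1.49 ± 0.352 against 1.86 ± 0.566, -0.19, adjusted p = 0.383), as were 5.73% of all genes. Insig1 was higher in 3 samples and lower in 2 (0.11, adjusted p = 0.782), and Scap differed little (-0.03, adjusted p = 0.889).

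Among fatty acid genes, Fasn (0.24, adjusted p = 0.364), Scd1 (-0.05, adjusted p = 0.888), Scd2 (0.17, adjusted p = 0.496) and Acly (0.38, adjusted p = 0.120) did not pass, and Acly was the only one of the 10 that was higher in cycling cells in 5 of 5 samples. Acacb was lower (0.749 ± 0.331 against 1.49 ± 0.818, log2 -0.47 ± 0.12, adjusted p = 0.0483), in 4 of 5 samples. Cycling cells were deeper, with medians of 7999 to 17645.5 UMIs against 4430 to 11198.5. The UMIs of Acacb per cell were 0.378 to 1.00 in cycling and 0.421 to 1.12 in noncycling cells, and in cells of at least 5000 UMIs the log2 difference was -0.18 (adjusted p = 0.449).

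In cells of at least 5000 UMIs Hmgcs1 (0.60), Idi1 (0.65), Cyp51 (0.52) and Fdft1 (0.32) still passed, with adjusted p of 0.00226, 0.00291, 0.00608 and 0.0383, and Msmo1 did not (0.29, adjusted p = 0.114). When cells were called cycling after thinning to 3000 UMIs no member and 111 of all genes passed (1199 at an unadjusted p under 0.05, limma) and the log2 of Hmgcs1 was 0.27 (adjusted p = 0.740). Hmgcs1 and Cyp51 passed without any 1 sample. Idi1 and Msmo1 were lost without late TFCO 1 (adjusted p = 0.0508 and 0.0557), Msmo1 also without late TFCO 2 or early TFCO 1 (0.0518 and 0.0734), and Fdft1 without any of late TFCO 1, 2 and 3 or early TFCO 1 (0.1594, 0.2086, 0.1335 and 0.1931). Acacb was lost without late TFCO 1, late TFCO 2, early TFCO 1 or early TFCO 2 (0.203, 0.120, 0.160 and 0.0755).

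**Figure D5:**
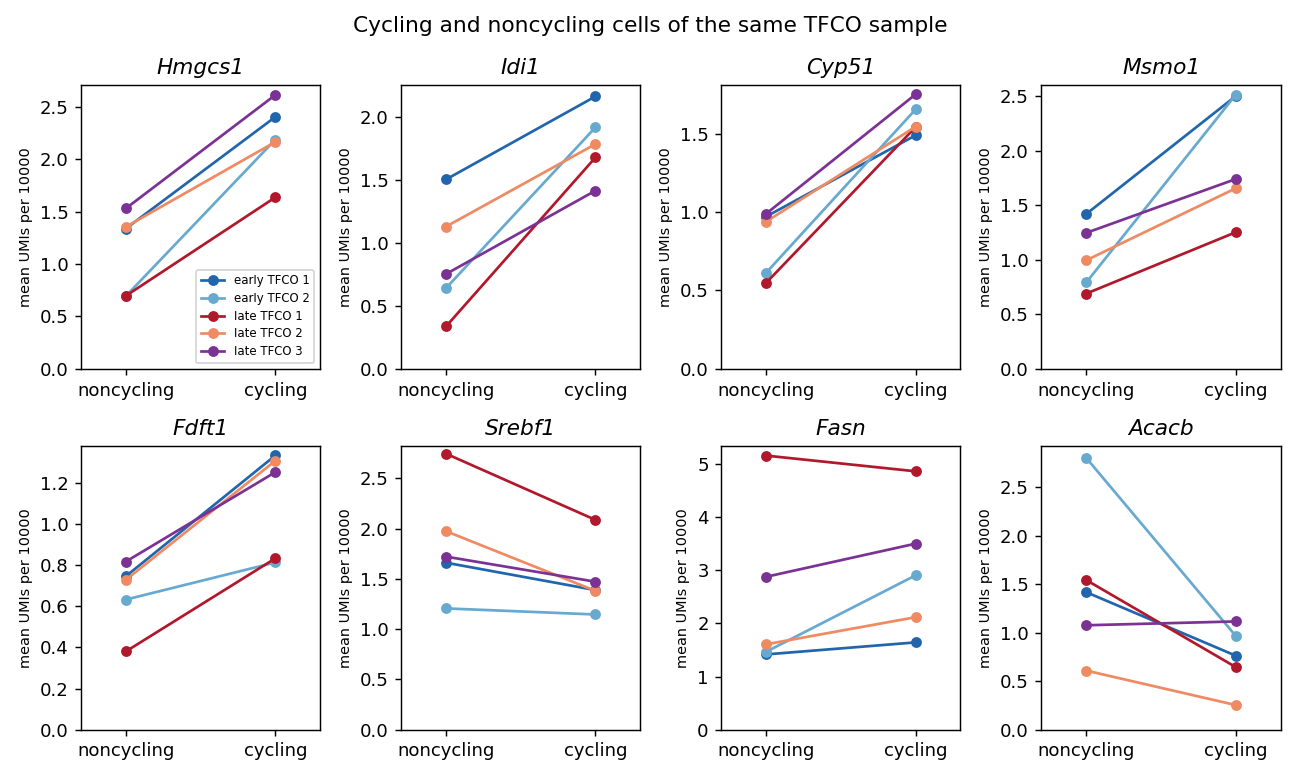
Levels of 8 members in the noncycling and cycling cells of the 5 TFCO samples, as mean UMIs per 10000 on the y axis, with a line joining the 2 values of a sample. The 5 sterol genes rise in 5 of 5 samples, Hmgcs1 from a mean of 1.12 to 2.20, while Srebf1 is lower in 5 of 5 and Acacb in 4 of 5.

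Of the neighbouring lists, only Acsl5 passed between cycling and noncycling cells (log2 0.46, adjusted p = 0.0122), 1 of 16 tested genes of desaturation, activation and storage, and it was lost without any of the 3 late samples (adjusted p = 0.0524, 0.0908 and 0.0706). No gene passed among 6 partners of SREBP processing, 8 of the isoprenoid branch, 10 of sterol storage and efflux and 18 of fatty acid oxidation. Among all genes tested here 1.92% were higher and 0.281% lower.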

How the data were processed

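Thyroid tissue and TFCOs were dissociated, and live single cells were sorted into 384-well plates and sequenced by SORT-seq, which tags each transcript with a UMI. The authors trimmed reads with Trim Galore 0.4.3, mapped them with STAR 2.5.3a to mouse build GRCm38 (mm10) and normalized the counts with Seurat, and the submitters' notes name these tools. The deposited values are the natural log of 1 plus UMIs per 10000 of the cell, for 30879 genes and 2590 cells. UMIs were recovered from them, and 100% of 6920804 values above 0 came out whole within 0.01. The strand setting of the counting was not given in the sources used here, so Hmgcs1, Idi1, Fdft1, Cyp51, Srebf1, Lss, Scap, Acss2, Me1 and Elovl6, which overlap an exon on the other strand, may hold reads of that gene.

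Cells of at least 1000 UMIs were kept. Total UMIs per sample were 1406925 to 4703472. Clusters were made with scanpy 1.11.5 and igraph 0.11.9 (2000 variable genes, 30 components, 15 neighbours, resolution 1), without the pathway genes and without 4194 genes that followed the well barcode. No doublet caller was run. The tissue cluster called TFC-like had 2 TFC markers (Tg and Iyd), 2 C cell markers (Chga and Calca) and the parathyroid gene Pth among its 10 leading genes, and 22 of its cells that scored higher for C cell, parathyroid or erythroid markers were set aside. The TFCO arm holds all 1457 kept TFCO cells, including an unnamed cluster of 229, where the plan named TFC-like cells.

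Mean UMIs per 10000 per sample were tested as log2(mean + 1) with limma 3.58.1 in R 4.3.3, with trended empirical Bayes and Benjamini-Hochberg adjustment over all genes tested at 0.05. The 3 groups were fitted together with 1 weight for tissue and 1 for TFCO and a minimum mean of 0.5 over the groups, which left 4 residual degrees of freedom. Cycling and noncycling cells were fitted with the sample as a block and a minimum mean of 0.1. Fits without 1 of the tissue samples used equal weights. The fits were also run on simulated data in which only the more abundant genes were changed and all samples varied alike. That run therefore does not cover the scarce members or a noisier tissue arm. The pairing comes from the sample itself, since both kinds of cells are from 1 culture.

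The members and lists were chosen with earlier results of these data known. Values were given in full for members past the threshold in any comparison, at most 12 in each by size, and for the 4 regulators, with up to 3 genes from each other list, and Tg, Mki67 and Top2a as checks of the labels. Other pseudocounts, filters, summing, centring, depths, cycling calls and left-out samples were tried.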

Additional observations from a re-analysis of the deposited data

Results flagged for a closer look

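Among 48 sets of 5 TFCO values, 3 had 1 sample far from the others, its gap to the nearest being over 0.71 of the whole range, and chance gives about 1 in 20. The Scd1 level in late TFCO 1 was 2.53, with a gap of 0.956 of the range. The Me1 level in early TFCO 2 was 1.58, with a gap of 0.775. The Elovl5 level in late TFCO 3 was 0.958, with a gap of 0.725.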

How the results depend on the processing

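Between TFCO and tissue (1266 genes, 15 members, median 0.70), a minimum mean of 0.1 gave 812 genes, 5 members and a median of 0.56, and no filter 797, 4 and 0.53. UMIs summed over cells gave 159 genes and 1 member, Scd2, but 1129 genes and 15 members once the 2 deepest tissue cells were left out, an alternative chosen after seeing the data. Centring gave 833 genes, 6 members and a median of 0.52, and turned Sc5d to -0.066. Cells of at least 2000 UMIs gave 690 and 9, thinning to 1000 UMIs 691 and 8, and equal weights 1940 genes. The median was 1.66 with a pseudocount of 0.1, 0.92 with 0.5 and 1.74 with 0.1 and a minimum mean of 0.1, the last also chosen after seeing the data. Leaving out 1 late sample gave 1232 to 1323 genes and 15 members. Leaving out a tissue or an early sample leaves 1 in that group, assumed to vary like the others, and gave medians of 0.67 to 0.74. The fits without a tissue sample also used equal weights. The fewest members passed without early TFCO 1. Between late and early TFCOs (1 gene, 0 members, median 0.04), a minimum mean of 0.1 gave 2 genes, and 4 with a pseudocount of 0.1. Leaving out 1 sample gave 1 to 338 genes (338 without early TFCO 1, which leaves 1 early sample assumed to vary like the others) and medians of -0.13 to 0.18. Without late TFCO 2 and early TFCO 1 (again 1 early sample) there were 529 genes, 1 member and a median of 0.17, and without late TFCO 1 and early TFCO 2 a median of -0.050. Insig1 turned to -0.066 when thinned and, without late TFCO 3, to -0.0021 (up to 0.165 without 1 sample), and Scap to -0.015 without late TFCO 3, -0.151 without early TFCO 2 (up to 0.145 without 1 sample) and -0.050 without late TFCO 1 and early TFCO 2. No paired analysis was possible because the labels tie no sample of 1 group to a sample of another. Between cycling and noncycling cells (266 genes, 6 members, median 0.16), the fit with no replicate block gave 132 genes and 2 members, Hmgcs1 (adjusted p = 0.0491, limma) and Cyp51 (0.0207). No filter gave 46 genes and 0 members (2534 genes at an unadjusted p under 0.05, limma), thinning to 1000 UMIs 50 and 0 (893 unadjusted), and cycling called at 3000 UMIs, with 227 shallower cells left out, 111 and 0 (1199 unadjusted) with a median of 0.028. Cycling from 1 or more UMIs gave 158, 3 and 0.069, summed UMIs 472 genes, 10 markers 412, and a pseudocount of 0.1 a median of 0.37. Leaving out 1 sample gave 132 to 347 genes and 2 to 6 members. Fasn turned to -0.24, Scap to 0.10 and Scd1 to 0.063 when thinned, Insig1 to -0.058 and Scd1 to 0.013 with 1 or more UMIs, Sqle to -0.046 when called at 3000 UMIs, Scd1 to 0.070 without late TFCO 1 (down to -0.134 without 1 sample) and Insig1 to -0.043 without early TFCO 2 (up to 0.262 without 1 sample). The cause of these shifts was not tested. Tissue depth limits the scarce sterol genes, of which 7 had no UMI in tissue 1 and were below the minimum mean of 0.5.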
